A study of Mus musculus with 37 samples.

Results

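The cortex of R6/2 mice was compared with that of WT mice at 9 wk of age, on 18 of the 37 arrays in the series, with 9 arrays and 9 mice per genotype. The arrays were chosen by their labelled genotype alone. R6/2 mice were hemizygous for a transgene that expresses an N-terminal exon 1 fragment of human huntingtin with an expanded CAG repeat, in addition to both mouse Htt alleles, and WT mice carried no transgene. All mice came from a cross of R6/2 males with Hdac4HET females, on a background mixed from CBA and C57BL/6, and neither genotype compared here carried the Hdac4 null allele. Each group held 5 labelled males and 4 labelled females. The transgene is driven by the human HTT promoter in all cells and carries only the first exon, so the mice model an early and broadly expressed fragment and not the full-length mutant protein. The other 19 arrays, from Hdac4HET and Dble::R6/2 mice, entered the same linear model only to estimate the spread, and 1 side-by-side comparison.

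Expanded huntingtin forms aggregates in the nucleus and cytoplasm of neurons, and the loss of transcripts for neurotransmitter receptors, neuropeptides and signalling enzymes is a well-known feature of the brain in Huntington's disease models. The cortex sends excitatory projections to the striatum and holds excitatory neurons in layers, several classes of inhibitory interneuron and glia. Many of its transcripts follow the recent activity of the tissue, through calcium entry, kinases and the transcription factors that they switch on.

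Each value is the log2 level of a probe set, a group of short probes on the array that reports 1 transcript, and 1 probe set per gene, the one with the highest mean over all arrays, stands for the gene. Array medians ran from 6.18 to 6.21 in both groups, and arrays correlated at 0.9932 to 0.9963 within WT and at 0.9936 to 0.9975 within R6/2. On 1 WT array, replicate 9, the sex-linked genes went against the labelled sex. Markers of excitatory neurons (3 measured, WT means from 9.59 to 10.22) and inhibitory neurons (3 measured, from 9.89 to 12.63) were well expressed, as the label of the tissue requires. The mean level of 17 olfactory bulb markers, a check for tissue from beyond the front of the cortex, ran from 6.23 to 6.5 in WT and from 6.16 to 6.37 in R6/2. In RNA from whole cortex, fewer cells of a type and less RNA per cell cannot be told apart.

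In R6/2 cortex, 1283 of 18193 genes changed at an adjusted p under 0.05 (limma, Benjamini-Hochberg over all probe sets) with a change of more than 1.3-fold, which is 7.05% of the genes. Of these, 683 were higher than in WT (3.75%) and 600 were lower (3.3%). Over all 45037 probe sets, 2737 changed (6.08%), of which 1374 rose (3.05%) and 1363 fell (3.03%). With a fall read as a ratio below 0.7 in place of 1.3-fold, 660 probe sets were lower, and 67.6% of the calls were then higher. Without the fold threshold, 5112 genes passed the adjusted p upward (28.1%) and 3340 downward (18.4%), so most of the genes that passed the test moved by less than 1.3-fold. The median change over all probe sets was -0.02. Without WT replicate 9, 2748 probe sets were called.

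Falls were more often large than rises. Between 1.3-fold and 1.5-fold, 544 genes were higher and 364 lower, but between 1.5-fold and 2-fold the counts were 124 higher and 194 lower, and beyond 2-fold they were 15 higher and 42 lower. Every R6/2 array lay above every WT array for 429 of the 683 genes called higher, and below for 390 of the 600 called lower. Among all genes, such complete separation was seen for 8.35% upward and 3.84% downward. With the genes split into 4 equal classes of mean signal, most calls came from the middle classes. In the dimmest class 0.835% were called higher and 0.418% lower, against 6.71% and 4.11% in the next and 5.52% and 4.49% in the class after. In the brightest class 1.96% were called higher and 4.18% lower.

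**Figure D1:**
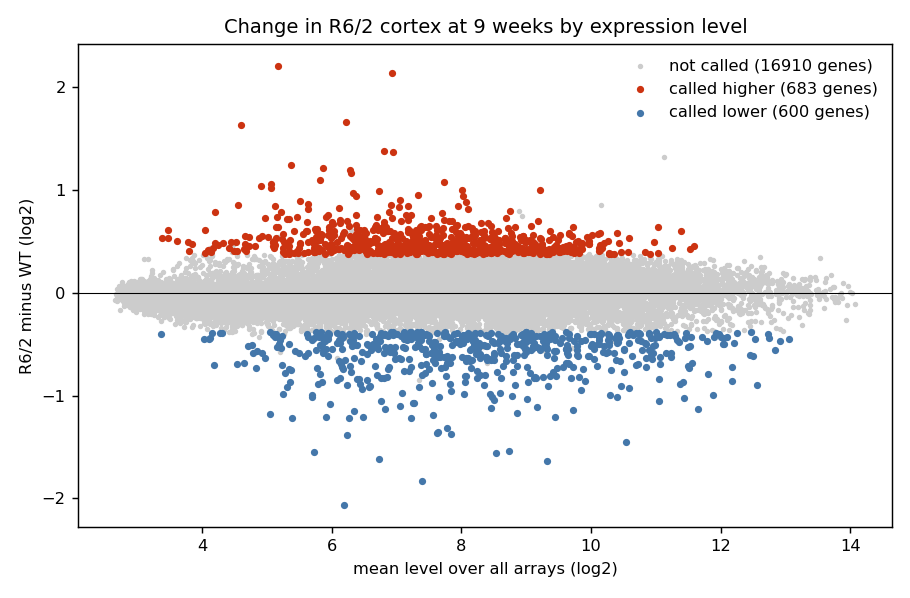
Change of each of 18193 genes in R6/2 cortex (log2, R6/2 minus WT) against its mean log2 level over all arrays, with 1 point per gene, red for the 683 called higher, blue for the 600 called lower and grey for the rest. The largest falls reach -2.06 and the largest rises 2.21, and the largest rises lie at low to middle levels.

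The 15 largest rises were of genes whose WT level lay below 7.37, the median WT level of all genes. Rgs13, a regulator of G protein signalling best known from B cells and mast cells, had levels from 3.85 to 4.36 in WT (median 4.0) and from 5.91 to 6.65 in R6/2 (median 6.24). The groups were far apart, and the change of 2.21 (standard error 0.13, limma adjusted p = 7.41e-17) was the largest rise. Gm2102, a predicted gene, lay between 5.37 and 6.03 in WT and between 7.72 and 8.02 in R6/2. Its change of 2.14 (standard error 0.08) gave the highest moderated t of the comparison, 26.3, yet its other probe set was at -0.11. Onecut2, a homeodomain transcription factor of developing liver and neurons, ranged from 5.16 to 5.66 in WT and from 6.79 to 7.32 in R6/2, a change of 1.67 (standard error 0.08), and both of its other probe sets rose too, by 1.62 and 1.79. Cks2, a small subunit of cell cycle kinases, was at 5.82 to 6.59 in WT and 7.43 to 7.83 in R6/2, and its other probe set rose by 1.32. Brca1, of DNA repair, changed by 1.22 (standard error 0.11), and 2 of its 3 other probe sets rose as well. No R6/2 array overlapped WT for any of these 5 genes.

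The largest falls came from genes of varied roles. Ddit4l, an inhibitor of mTOR signalling, ranged from 9.26 to 9.76 in WT (median 9.57) and from 7.70 to 8.33 in R6/2 (median 8.03), a change of -1.54 (standard error 0.09, adjusted p = 9.2e-17), and its 2 other probe sets fell by 1.36 and 1.6. Gpr153, an orphan receptor, ran from 8.02 to 8.55 in WT and from 6.60 to 7.16 in R6/2. Fst, the secreted inhibitor follistatin that binds activins, lay between 6.06 and 6.88 in WT and between 4.48 and 5.17 in R6/2. Abi3bp, a protein of the extracellular matrix, fell by 1.62 (standard error 0.14), and its other probe set fell by 1.51. Plk5, a relative of the polo-like kinases that is expressed in neurons, had 7.59 to 7.97 in WT and 6.37 to 6.74 in R6/2. In each of these genes the groups were fully separate.

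Some changes of moderate size were among the clearest, because the mice of a group varied little. Ddn, dendrin, a protein of dendritic spines, ranged only from 12.71 to 12.81 in WT and from 12.05 to 12.18 in R6/2, and its change of -0.61 had a standard error of 0.03. Camkk2, the kinase that activates CaM kinases and AMPK, had 11.41 to 11.66 in WT and 10.35 to 10.63 in R6/2, with a change of -1.05 (standard error 0.05, adjusted p = 5.68e-20), and its 3 other probe sets fell by 0.59 to 0.93. Nat8l, which makes N-acetylaspartate, the abundant neuronal metabolite, ran from 11.08 to 11.33 in WT and from 10.48 to 10.70 in R6/2. Dgkz, a diacylglycerol kinase, and Gpr83, a receptor, were likewise separate, at changes of -0.61 and -0.98 (standard errors 0.03 and 0.05). Upward, Ahsa2, a relative of the HSP90 activator Ahsa1, lay between 8.98 and 9.14 in WT and between 9.57 and 9.73 in R6/2, and Nfya, a subunit of the CCAAT-binding factor NF-Y, between 7.31 and 7.64 in WT and between 8.32 and 8.62 in R6/2.

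**Figure D2:**
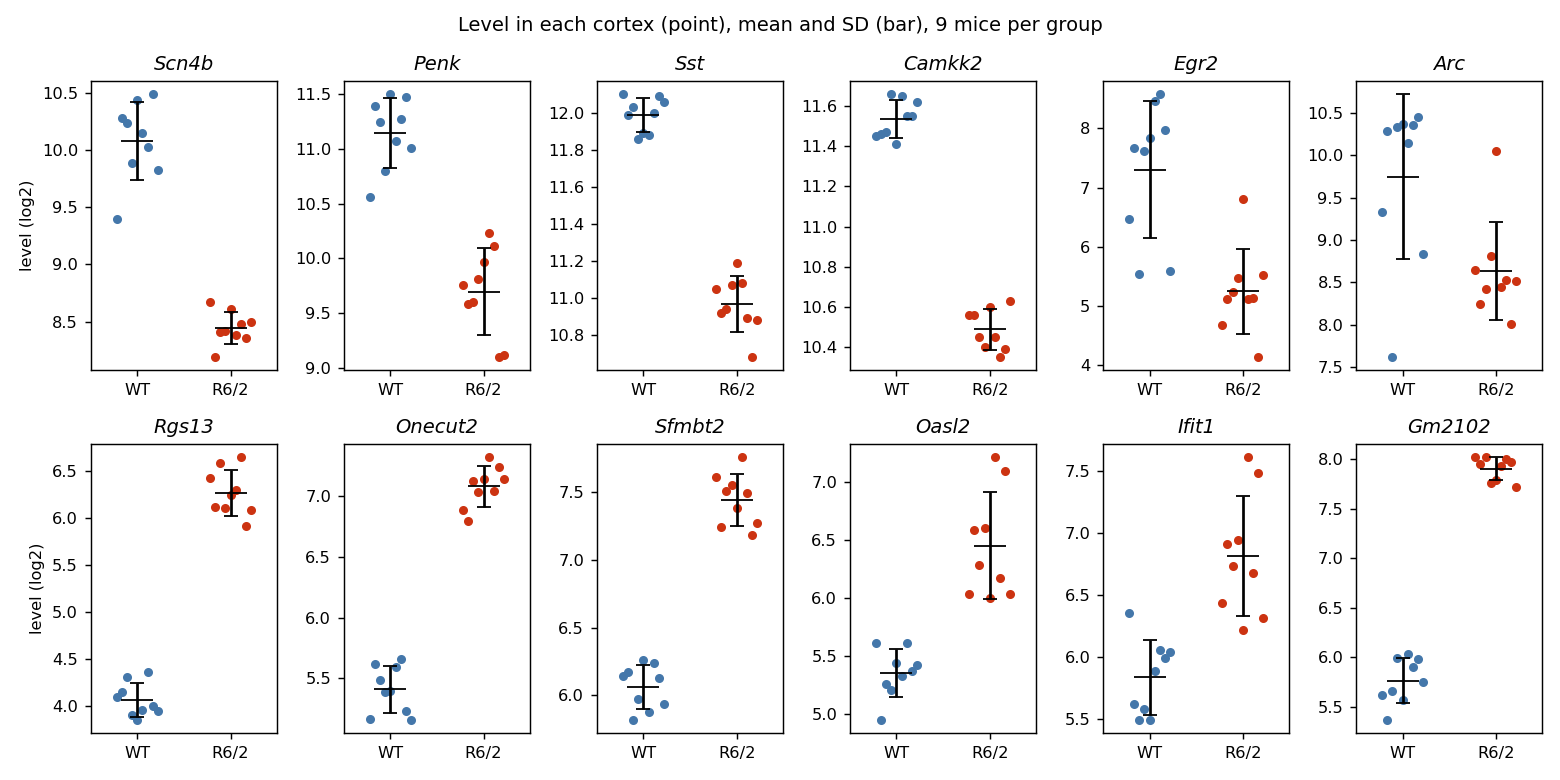
Log2 level of 12 genes in each cortex, WT in blue and R6/2 in red, with each point a mouse and the black bars the mean and SD of 9 mice; each panel has its own axis. Camkk2, Sst, Rgs13, Onecut2, Sfmbt2 and Gm2102 are tight and separate, whereas Egr2 and Arc spread widely in WT and overlap, and Oasl2 and Ifit1 spread more widely in R6/2 than in WT.

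Activity-induced genes, which neurons switch on within minutes to hours of firing, were lower in R6/2 cortex. Of 33 measured, 20 were called lower and none higher, and their median change was -0.46, beside 3.3% of all genes called lower. Egr2, a zinc finger transcription factor, had the largest fall of all genes, at -2.06 (standard error 0.4, adjusted p = 6.33e-05). Its levels ran from 5.54 to 8.58 in WT (median 7.67) and from 4.13 to 6.81 in R6/2 (median 5.13), so the groups overlapped in spite of the size of the change, and its other probe set gave -2.03. Arc, which regulates synaptic strength, ranged from 7.62 to 10.45 in WT (median 10.29) and from 8.01 to 10.05 in R6/2 (median 8.52). Npas4, a transcription factor of inhibitory synapse formation, ranged from 6.04 to 8.42 in WT and from 5.78 to 7.85 in R6/2. Fos had a change of -0.53 with a standard error of 0.29 and did not pass the test (adjusted p = 0.152), and Fosb and Jun were at 0.22 and -0.01.

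The spread of these genes followed the mouse. Only 4 of the 33 separated the groups completely, against 13 of the 21 neuropeptide genes, beside 3.84% of all genes separated downward. The mean level of the list was 8.85, 8.95 and 9.11 in WT replicates 3, 9 and 1, below the 9.43 to 9.64 of the other 6 WT mice, and R6/2 replicate 5, at 9.28, lay above the 8.64 to 8.9 of the other R6/2 mice. The number called lower ran from 18 to 22 when any of the 18 arrays was left out. The 4 that separated were Ptgs2, Nptx2, Nrn1 and Inhba. Ptgs2, the inducible cyclooxygenase, ran from 7.23 to 8.25 in WT and from 6.58 to 7.17 in R6/2. Nrn1, a secreted protein that supports neurites, and Nptx2, which clusters AMPA receptors, changed by -0.86 and -1.01 (standard errors 0.05 and 0.09). The neurotrophin Bdnf lay between 8.98 and 9.74 in WT and between 8.68 and 9.19 in R6/2, a change of -0.54 (standard error 0.09, adjusted p = 5.28e-06), and its other probe set fell by 0.58.

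**Figure D3:**
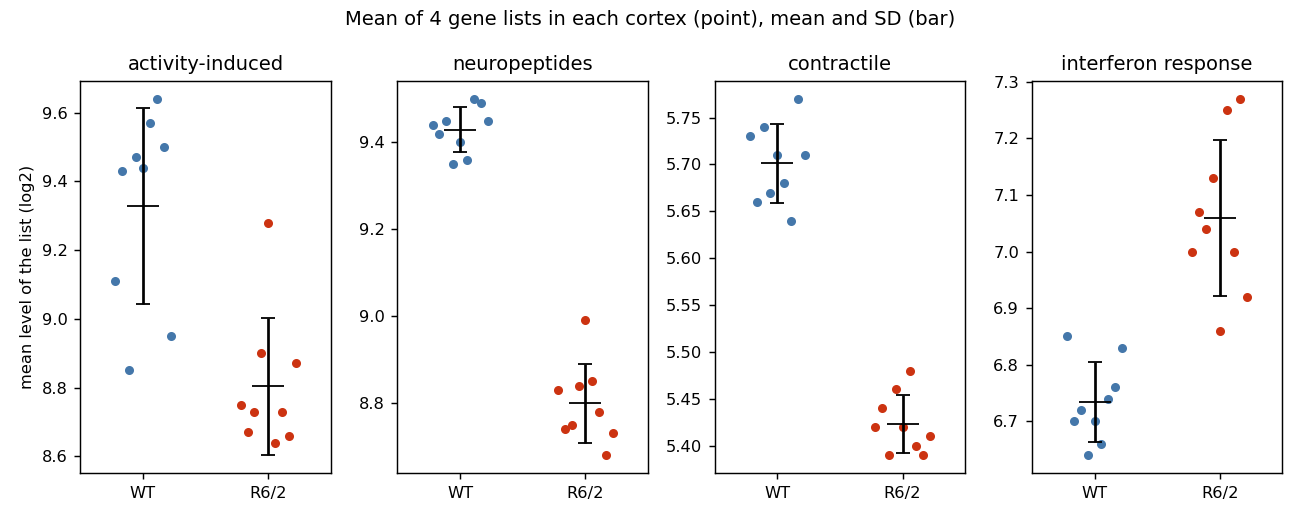
Mean log2 level over the measured genes of 4 lists in each cortex, WT in blue and R6/2 in red, with each point a mouse and the black bars the mean and SD of 9 mice; each panel has its own axis. The neuropeptide and contractile means do not overlap between the groups, the activity-induced means do, with 3 low WT mice and 1 high R6/2 mouse, and the interferon means do not overlap but come close, with nearest values of 6.85 in WT and 6.86 in R6/2.

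Some phosphatases that switch off MAP kinases, such as Dusp1, are themselves induced by activity. In the list of MAP kinase phosphatases 5 of 22 measured genes were lower and none was higher, beside 3.3% of all genes called lower. Dusp1 ranged from 9.04 to 10.78 in WT and from 9.20 to 10.25 in R6/2, and overlapped. Dusp14 and Dusp7, at -0.52 and -0.55 (standard error 0.07 for each), did not. Btg2, an antiproliferative gene induced by activity and by p53, ran from 7.96 to 9.28 in WT and from 7.56 to 8.68 in R6/2.

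Neuropeptides separated the groups in the largest share of members among the 45 lists, 13 of 21. Of 21 measured genes, 13 were called lower and none higher (median change -0.47), and none of the 21 had a change above -0.05. Among all genes 3.3% were called lower and 3.84% separated downward. Penk, the precursor of enkephalins, ranged from 10.56 to 11.50 in WT (median 11.25) and from 9.10 to 10.23 in R6/2 (median 9.76). Penk was lowest in WT replicate 1 and in R6/2 replicates 8 and 9. The mean of the genes enriched in the striatum, given below, was lowest in the same mice, at 9.5, 9.05 and 9.0. The part of adjoining striatum in the Penk values was not tested. Cartpt, the precursor of CART peptides, lay between 7.80 and 8.76 in WT and between 5.90 and 7.37 in R6/2, with a change of -1.35 (standard error 0.16). Crh, corticotropin-releasing hormone, made in cortex by interneurons, ran from 8.33 to 8.72 in WT and from 6.70 to 7.89 in R6/2, its spread being wider in R6/2. Sst, somatostatin, was tight in both groups, with 11.86 to 12.10 in WT and 10.68 to 11.19 in R6/2. Vip lay between 9.99 and 10.54 in WT and between 8.88 and 9.52 in R6/2. Tac1, Adcyap1 and Vgf, at -0.3, -0.15 and -0.05, did not pass the test.

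Transcription of several of these genes is known to respond to cAMP and calcium through the cAMP response element, written TGACGTCA and the same on both strands. A search of the RefSeq promoters of GRCm38.p6, from 250 bases before to 50 bases after each start, found it in 4 of 18 promoters of 16 measured neuropeptide genes (22.2%) and in 4 of 38 promoters of 26 activity-induced genes (10.5%), beside 2.49% of the 18109 promoters of all measured genes. It was in 2.24% of promoters of the genes called lower and in 2.99% of those called higher, so the genes that fell did not carry it more often as a whole. Among the called genes, the element was in 2 of 10 promoters of the neuropeptide list and 2 of 25 of the activity-induced list. Chgb, Scg2, Pcsk1 and Plk2 of these lists hold it too but were not called. The 250 bases before the start are shown for the called genes of these lists that hold the element, which is in capitals. Each sequence is read 5′ to 3′ on the strand of its gene. The windows are chr16:23890845-23891094, minus strand, for Sst; chr13:99900684-99900933, minus strand, for Cartpt; chr1:134079156-134079405, minus strand, for Btg2; and chr17:26508473-26508722, minus strand, for Dusp1.
Sst: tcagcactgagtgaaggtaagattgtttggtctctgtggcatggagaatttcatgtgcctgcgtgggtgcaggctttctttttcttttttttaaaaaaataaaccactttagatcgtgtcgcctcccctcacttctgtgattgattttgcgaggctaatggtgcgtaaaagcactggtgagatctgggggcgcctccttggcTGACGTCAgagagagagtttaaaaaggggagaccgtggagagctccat
Cartpt: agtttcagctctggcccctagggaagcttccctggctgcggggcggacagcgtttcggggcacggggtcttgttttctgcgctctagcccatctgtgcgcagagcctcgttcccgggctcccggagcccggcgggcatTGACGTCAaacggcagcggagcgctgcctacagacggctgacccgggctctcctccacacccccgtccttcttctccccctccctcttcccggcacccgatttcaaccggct
Btg2: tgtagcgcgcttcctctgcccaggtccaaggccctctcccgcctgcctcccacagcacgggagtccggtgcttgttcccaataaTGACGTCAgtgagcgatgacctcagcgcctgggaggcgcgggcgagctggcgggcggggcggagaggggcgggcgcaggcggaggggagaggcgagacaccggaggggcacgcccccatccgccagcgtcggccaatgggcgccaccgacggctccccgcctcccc
Dusp1: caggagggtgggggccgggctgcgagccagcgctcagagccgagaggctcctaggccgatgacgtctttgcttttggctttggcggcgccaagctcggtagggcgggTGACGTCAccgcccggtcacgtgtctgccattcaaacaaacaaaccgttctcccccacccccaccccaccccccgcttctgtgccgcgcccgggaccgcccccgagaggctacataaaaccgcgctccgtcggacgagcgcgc
The element begins 48 bases before the start in Sst, 112 in Cartpt, 166 in Btg2 and 143 in Dusp1. Vip, which changed by -1.14, holds only the shorter core TGACG, which is in 26.5% of all promoters.

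Genes enriched in the striatum, which the cortex also expresses at a lower level, had the lowest median of the 45 lists, at -0.62. In that list 13 of 18 were called lower and none higher, beside 3.3% of all genes called lower. Scn4b, the sodium channel subunit of fast resurgent currents, ranged from 9.40 to 10.49 in WT (median 10.15) and from 8.19 to 8.67 in R6/2 (median 8.42). Ppp1r1b, DARPP-32, the protein phosphatase inhibitor of dopamine signalling, ran from 9.34 to 10.41 in WT and from 8.10 to 9.36 in R6/2, and the lowest WT and highest R6/2 values crossed by little. Pdyn, the precursor of dynorphins, which also counts among the neuropeptides above, lay between 6.49 and 7.17 in WT and between 5.78 and 6.18 in R6/2. The WT levels of Drd1 and Drd2 overlapped those of R6/2, with changes of -0.56 and -0.53 (standard errors 0.12 and 0.16). The mean over the list ran from 9.5 to 10.2 in WT and from 9.0 to 9.48 in R6/2, and the part of adjoining striatum in these values was not tested.

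G protein-coupled receptors and their regulators were lower in part. Of 37 G protein-coupled receptors, 13 were lower and none was higher (median -0.28), beside 3.3% of all genes called lower. Oprk1, the κ opioid receptor that binds dynorphins, lay between 5.74 and 6.34 in WT and between 4.95 and 5.68 in R6/2. Cckbr, the receptor of cholecystokinin, whose gene Cck was also lower (-0.43, standard error 0.06), lay between 9.70 and 10.07 in WT and between 8.93 and 9.42 in R6/2. Sstr2, a somatostatin receptor, and Grm2, a presynaptic glutamate receptor, changed by -0.65 and -0.66 (standard errors 0.07 and 0.06) with no overlap. Among 33 regulators of G proteins, 10 were lower and 3 higher, beside 3.3% and 3.75% of all genes. Rasd1, Rgs11 and Rgs9 were at -0.85, -0.81 and -0.83 (standard errors 0.09, 0.07 and 0.13). Rgs13 was the exception in size, and Gng4, a G protein γ subunit, and Rgs19 were higher at 0.49 and 0.46. Of 35 adenylyl cyclases and phosphodiesterases 4 were lower, none below -0.41, and none was higher, beside 3.3% of all genes called lower. That count was 2 without WT replicate 4 and without R6/2 replicate 7, because Adcy1 and Adcy9 (-0.39 each) lie close to the fold threshold.

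Calcium signalling enzymes and sensors were lower with little spread. Of 37 measured, 12 were called lower and none higher, and 17 separated the groups downward (median -0.28). Among all genes 3.3% were called lower and 3.84% separated downward. Itpka, an inositol trisphosphate kinase that bundles actin in spines, ranged from 10.75 to 11.00 in WT and from 9.63 to 10.10 in R6/2. Camk1g, a CaM kinase, ran from 8.65 to 9.28 in WT and from 8.05 to 8.46 in R6/2. Camk2a, the major kinase of the postsynaptic density, and Nrgn, neurogranin, which binds calmodulin, changed by -0.45 and -0.47. Beside 3.3% of all genes called lower, 4 of 29 calcium channels and pumps were lower. The largest of these was Ryr1, a calcium release channel best known from skeletal muscle, at 6.60 to 7.12 in WT and 5.35 to 5.75 in R6/2 (change -1.38, standard error 0.09). Atp2b2, a calcium pump of the plasma membrane, had 12.13 to 12.38 in WT and 11.69 to 11.93 in R6/2, and its 2 other probe sets fell by 0.62 and 0.75.

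Ion channels did not all move 1 way. Of 49 potassium channel genes 8 were lower and none higher, beside 3.3% of all genes called lower. Kcnip2, a subunit of A-type channels, lay between 10.17 and 10.54 in WT and between 9.12 and 9.67 in R6/2, and Kcnh3, of the ether-à-go-go family, between 8.76 and 9.08 in WT and between 7.90 and 8.23 in R6/2. Of 16 sodium and HCN channel genes, 3 were higher and only Scn4b was lower, beside 3.75% and 3.3% of all genes. The 3 higher genes encode pore-forming sodium channel subunits. Scn9a, best known from peripheral sensory neurons, ranged from 4.11 to 4.76 in WT and from 4.86 to 6.32 in R6/2, with a change of 1.06 (standard error 0.14). Its 4 other probe sets were at -0.04, -0.03, 0.15 and 0.69, and only the last was called. Scn3a, the form that predominates before birth, lay between 8.93 and 9.11 in WT and between 9.28 and 9.65 in R6/2. The other probe set of Scn3a was at -0.03. Scn7a lay between 6.03 and 6.40 in WT and between 6.43 and 6.81 in R6/2, and its 2 other probe sets were at 0.29 and 0.57. Of 15 GABA receptor and synthesis genes, 7 passed the adjusted p downward, beside 18.4% of all genes. Of the 15, 1 was called, beside 7.05% of all genes. It was Gabrd, the δ subunit of extrasynaptic receptors, at 9.27 to 9.59 in WT and 8.12 to 8.65 in R6/2 (change -1.03, standard error 0.06), while its other probe set was at -0.21. Of 23 ionotropic glutamate receptor genes 2 were lower, beside 3.3% of all genes called lower. They were Cacng3, an AMPA receptor auxiliary subunit, at -0.63, and Grik1, a kainate receptor subunit, at -0.42. Grik1 was not called without R6/2 replicate 8, and the list's count ran from 1 to 4 over the arrays left out.

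Genes of the synapse fell in part. Of 47 genes of transmitter release, 12 were lower and none higher (median -0.22), beside 3.3% of all genes called lower. Cplx2 and Cplx3, complexins that clamp fusion, were at 12.72 to 13.17 and 8.31 to 8.70 in WT, and at 12.00 to 12.43 and 7.29 to 7.74 in R6/2. Vamp1, a SNARE protein, and Doc2a, a calcium sensor of spontaneous release, changed by -0.61 and -0.60 (standard error 0.05 for each). Of 36 postsynaptic scaffold genes, 5 were lower and none higher, beside 3.3% of all genes called lower. Yet 12 separated the groups downward, beside 3.84% of all genes, since most of these falls were under 1.3-fold (median -0.18). Dlg4, PSD-95, had 11.12 to 11.28 in WT and 10.66 to 10.86 in R6/2, and all 3 of its probe sets fell, by 0.40 to 0.46. Dlgap2, a PSD-95 partner, ranged from 8.29 to 9.03 in WT and from 7.84 to 8.40 in R6/2.

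Markers of cortical layers and of interneuron classes divided by gene. Of 25 layer markers, 10 were lower and none higher (median -0.29), and 11 separated downward. Among all genes 3.3% were called lower and 3.84% separated downward. Otof, otoferlin, a marker of superficial neurons, lay between 6.77 and 7.34 in WT and between 5.41 and 6.16 in R6/2. Lamp5, of superficial layers and of a class of interneuron, lay between 12.08 and 12.46 in WT and between 10.78 and 11.44 in R6/2. Rspo1 had a change of -1.07 (standard error 0.12) and Stard8 of -1.0 (standard error 0.06). Among the layer-defining transcription factors, Fezf2 and Cux2 were called lower at -0.52 and -0.40, and Tbr1, Foxp2 and Rorb, at -0.03, 0.12 and -0.08, did not pass the test. Of 28 interneuron genes, 7 were lower and 1, Dlx2, was higher (0.43), beside 3.3% and 3.75% of all genes. Crhbp, which binds CRH, ran from 8.81 to 9.23 in WT and from 7.82 to 8.46 in R6/2, and Cox6a2, of fast-spiking cells, from 8.26 to 8.62 in WT and from 7.56 to 8.13 in R6/2. The common markers of inhibitory neurons measured here, 3 in number, changed by -0.37 to -0.15 and were not called, although Gad1 and Gad2, which make GABA, at -0.37 and -0.23, passed the adjusted p (5.33e-07 and 0.00941).

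Genes of contractile proteins, usually studied in muscle, gave some of the largest falls. Of 44 measured, 9 were lower and none higher, beside 3.3% of all genes called lower, though the median of the list was only -0.11. Myh7, the β heavy chain of cardiac myosin, ranged from 7.65 to 8.77 in WT (median 8.41) and from 5.79 to 6.89 in R6/2 (median 6.63), a change of -1.83 (standard error 0.16, limma adjusted p = 5.74e-12). Myl4, a myosin light chain, lay between 8.96 and 9.59 in WT and between 7.20 and 7.99 in R6/2, while its other probe set was at -0.16. Tnnc1, cardiac troponin C, lay between 8.14 and 9.07 in WT and between 6.91 and 7.41 in R6/2. Tcap, Tnnt1 and Acta1 were also called, at -0.88, -0.71 and -0.64. The mean over the list did not overlap between the groups, with 5.64 to 5.77 in WT and 5.39 to 5.48 in R6/2.

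Among 48 trophic and TGFβ-family genes, 8 were lower and none higher, beside 3.3% of all genes called lower. Beside Fst, Gfra2, a co-receptor of the GDNF family, ran from 9.89 to 10.33 in WT and from 8.70 to 9.83 in R6/2, Igfbp5, which binds insulin-like growth factors, from 10.75 to 11.06 in WT and from 9.84 to 10.25 in R6/2, and Igf1 itself from 7.73 to 8.04 in WT and from 7.0 to 7.41 in R6/2. The other probe set of Igfbp5 was at -0.03. Of 46 matrix genes 6 were lower and 3 higher, beside 3.3% and 3.75% of all genes. Hapln1, a link protein of perineuronal nets, was at -0.64 (standard error 0.08), and its 3 other probe sets fell by 0.58 to 0.63. Col3a1, a fibrillar collagen, was higher at 0.65 (standard error 0.17), with overlap, and its other probe set was at 0.02. Of 65 adhesion and guidance genes 8 were lower and 2 higher, beside 3.3% and 3.75% of all genes. Epha10, an Eph receptor, lay between 8.39 and 8.64 in WT and between 7.56 and 7.75 in R6/2, and Cntn6, a contactin, was higher, between 7.47 and 7.98 in WT and between 8.22 and 8.86 in R6/2.

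Of 29 genes of cholesterol and fatty acid synthesis, 8 were lower, beside 3.3% of all genes called lower. Stard4, which carries cholesterol within the cell, and Insig1, the sterol sensor that holds back SREBP, lay between 8.35 and 8.84 and between 9.05 and 9.62 in WT, and between 7.70 and 8.19 and between 8.52 and 8.89 in R6/2. The 1 gene called higher was Abca1, which exports cholesterol from the cell, at 9.22 to 9.59 in WT and 9.83 to 10.04 in R6/2, but its 2 other probe sets were at -0.07 and -0.16. Of 21 clock genes, 6 were lower and 1 higher, beside 3.3% and 3.75% of all genes. Ciart and Dbp, outputs of the clock, were at -0.81 and -0.70 (standard errors 0.14 and 0.12) with overlap between the groups, and Cry1, a repressor of the clock, rose by 0.65 (standard error 0.08), at 6.81 to 7.31 in WT and 7.54 to 7.91 in R6/2. The sources used here do not give the hour at which each mouse was killed, and its part in these genes was not tested.

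**Figure D4:**
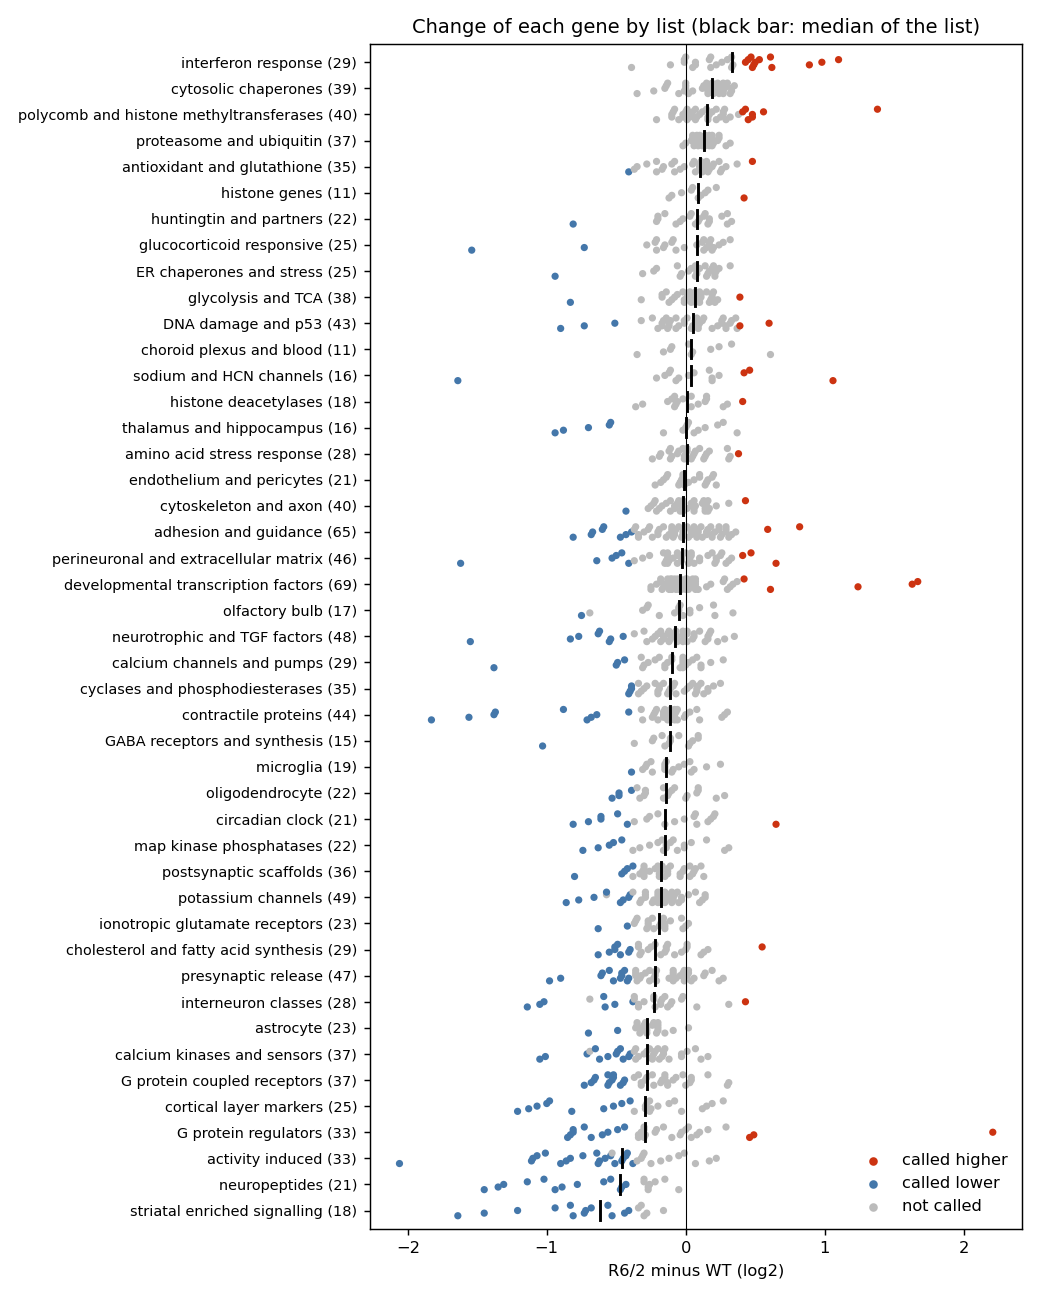
Change of every measured gene (log2, R6/2 minus WT) in 45 gene lists, ordered by their median (black bar), with the number of genes measured in parentheses; red points were called higher, blue lower and grey not called. The striatal, neuropeptide and activity-induced lists lie at the low end, with medians of -0.62, -0.47 and -0.46, and the interferon list at the high end, with 0.33.

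Upward, developmental transcription factors changed in a few members only. Of 69 measured, 5 were higher and none lower, beside 3.75% of all genes called higher, and the median of the list was -0.04. Pou4f1, a POU factor of sensory neurons and retina, had levels from 3.51 to 3.97 in WT (median 3.82) and from 4.55 to 6.32 in R6/2 (median 5.32), and its other probe set rose by 2.11. Twist1, a factor of mesoderm, ranged from 4.34 to 5.03 in WT and from 5.27 to 7.03 in R6/2. Hoxb5, of the hindbrain and spinal cord, ran from 2.84 to 3.37 in WT and from 3.41 to 4.51 in R6/2, all near the bottom of the signal range. Dmrt2, a factor of somites, was outside the list and rose by 1.04 (standard error 0.09), from 4.02 to 4.65 in WT to 5.10 to 5.86 in R6/2.

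Polycomb proteins and histone methyltransferases, which keep developmental genes silent or set other histone marks, were higher in part. Of 40 measured, 7 were higher and none lower, beside 3.75% of all genes called higher, and the median was 0.15. Sfmbt2, a Polycomb protein, was far above the rest, at 5.82 to 6.26 in WT and 7.18 to 7.76 in R6/2 (change 1.38, standard error 0.08). L3mbtl3, a reader of methylated histones, lay between 8.55 and 8.84 in WT and between 9.13 and 9.38 in R6/2. Bmi1, a core subunit of PRC1, lay between 9.54 and 9.65 in WT and between 9.99 and 10.18 in R6/2, and its other probe set gave the same change of 0.48. Eed, a core subunit of PRC2, and Kmt2d, a methyltransferase of enhancers, were higher at 0.41 and 0.45. The X-linked demethylase Kdm5c was called at 0.48 on its brightest probe set, but its 8 other probe sets ranged from -0.28 to 0.61 with 1 of them called. Among 18 deacetylases 1 was called, beside 7.05% of all genes. It was Sirt1, at 0.41 (standard error 0.05), and Hdac4 was at -0.06 (standard error 0.04, adjusted p = 0.302). Under quantile normalization Sirt1 was at 0.36 and no longer past the fold threshold.

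The interferon response had the highest median of the 45 lists, 0.33. In it 12 of 29 genes were higher and none lower, beside 3.75% of all genes called higher. Oasl2, of the 2′-5′ oligoadenylate synthetase family, ranged from 4.95 to 5.61 in WT (median 5.37) and from 6.00 to 7.22 in R6/2 (median 6.29), a change of 1.10 (standard error 0.15, adjusted p = 2.98e-07). Ifit1, which binds foreign RNA, ranged from 5.49 to 6.35 in WT (median 5.88) and from 6.21 to 7.61 in R6/2 (median 6.73). Usp18, which damps interferon signalling, ran from 4.66 to 5.45 in WT and from 5.41 to 6.87 in R6/2, and Ifi35 from 6.66 to 7.03 in WT and from 7.15 to 7.78 in R6/2. Ifi27l2a, outside the list, lay between 5.37 and 6.28 in WT and between 6.26 and 7.94 in R6/2. The sensor Ifih1 and the factors Irf7 and Irf9 were higher at 0.47, 0.45 and 0.49, but Stat2, Irf1, Mx1 and Mx2, at 0.00, 0.05, 0.07 and -0.01, did not pass the test. The response differed among R6/2 mice, with a mean of the list at 7.25 and 7.27 in replicates 6 and 8 and between 6.86 and 7.13 in the other 7, beside 6.64 to 6.85 in WT. The number called higher ran from 10 to 13 when any of the 18 arrays was left out. Of 19 measured microglial genes, none was higher and 1, Cd68, was lower, at -0.39, beside 3.3% of all genes called lower. The call of Cd68 was lost without WT replicate 2, 5 or 8 or R6/2 replicate 5, 8 or 9.

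Interferon signalling acts through the interferon-stimulated response element, whose core was searched as GAAA, any 2 bases and GAAA again, on both strands, in the same promoters; this motif was added after the changes were known. It was in 11 of 29 promoters of 23 measured genes of the list (37.9%), beside 3.03% of all 18109 promoters, 4.49% of those of genes called higher and 1.6% of those of genes called lower. Among the called genes it was in 4 of 14 promoters. The 250 bases before the start are shown for the 2 called genes whose promoters hold it more than once, with the matches in capitals, and the windows are chr19:34640639-34640888, plus strand, for Ifit1, and chr19:34583279-34583528, plus strand, for Ifit3.
Ifit1: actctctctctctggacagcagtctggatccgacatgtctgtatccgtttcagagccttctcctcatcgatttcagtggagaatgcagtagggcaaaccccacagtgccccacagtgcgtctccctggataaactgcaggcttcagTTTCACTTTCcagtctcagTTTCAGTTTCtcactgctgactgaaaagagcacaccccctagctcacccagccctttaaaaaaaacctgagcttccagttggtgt
Ifit3: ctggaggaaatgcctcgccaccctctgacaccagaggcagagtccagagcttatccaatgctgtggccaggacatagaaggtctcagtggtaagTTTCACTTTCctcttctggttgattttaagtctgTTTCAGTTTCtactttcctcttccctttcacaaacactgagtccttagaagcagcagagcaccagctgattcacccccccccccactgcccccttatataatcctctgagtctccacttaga
Ifit3, which binds Ifit1, changed by 0.61 (standard error 0.12). The promoters of genes called higher and lower also differed in CpG content, with a median ratio of observed to expected CpG of 0.718 and 0.577, beside 0.65 over all measured genes, while their GC content was 58.7% and 60.3%, beside 58.3%.

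The proteasome and a list of cytosolic chaperones, which also holds mitochondrial Hspd1, moved upward in small steps that stayed under the fold threshold. Of 39 genes of that chaperone list none was called, yet 27 passed the adjusted p upward and 3 downward (median 0.19). The groups were separate upward for 13 of the 39, beside 8.35% of all genes. Hspd1, the mitochondrial chaperonin, lay between 10.93 and 11.13 in WT and between 11.27 and 11.38 in R6/2, a change of 0.27 (standard error 0.02, adjusted p = 5.1e-13). Of 37 proteasome and ubiquitin genes none was called, but 29 passed the adjusted p upward and none downward (median 0.13). Psma1, a proteasome subunit, had 10.55 to 10.65 in WT and 10.81 to 11.10 in R6/2. Of 25 chaperone and stress genes of the endoplasmic reticulum, 14 passed the adjusted p upward and 4 downward (median 0.08), and 1, Wfs1, was called lower. These counts stand beside 28.1% of all genes past the adjusted p upward and 18.4% downward, and 3.3% called lower. Htt itself was at 8.82 to 9.01 in WT and 8.87 to 9.12 in R6/2, a change of 0.09 (standard error 0.03, adjusted p = 0.036).

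Glial markers were lower in part. Of 23 astrocyte genes, 2 were called lower and none higher, beside 3.3% of all genes called lower. Of the 23, 19 passed the adjusted p downward (median -0.28), beside 18.4% of all genes. The groups were separate downward for 6 of them, beside 3.84% of all genes. The mean of the astrocyte list did not overlap, with 10.28 to 10.43 in WT and 10.01 to 10.14 in R6/2. Agt, angiotensinogen, ranged from 7.04 to 8.49 in WT and from 6.59 to 7.66 in R6/2, and Slc7a10, a transporter of serine and glycine, from 8.76 to 9.20 in WT and from 8.31 to 8.68 in R6/2. Of 22 oligodendrocyte genes 4 were lower and none higher, beside 3.3% of all genes called lower. Tspan2 and Mal, of myelin, were at -0.53 and -0.48 (standard error 0.09 for each), and Gpr17, of maturing precursors, at -0.48. Mobp, at -0.39, was not called without WT replicate 2 or without R6/2 replicate 1, 5 or 6. Of 21 genes of endothelium and pericytes none was called, and 5 passed the adjusted p upward and 2 downward, beside 28.1% and 18.4% of all genes. Of 16 markers of the thalamus and hippocampus, which border the cortex, 5 were lower and none higher, beside 3.3% of all genes called lower. The mean of the list overlapped, with 6.78 to 7.08 in WT and 6.71 to 6.92 in R6/2. Spink8 and Fibcd1, markers of hippocampal pyramidal cells, were at -0.88 and -0.70 (standard errors 0.16 and 0.19) with overlapping groups, and Wfs1, which also marks superficial cortical neurons, was fully separate, at 10.15 to 10.44 in WT and 9.02 to 9.58 in R6/2. The part of adjoining hippocampus in these values was not tested.

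Called genes with further probe sets on the array were compared across them. Of 289 genes called lower with at least 2 probe sets, 168 had another probe set called lower and 1 had another called higher. Of 403 genes called higher, 116 had another called higher and 2 had another called lower. No other probe set was called for 120 of the genes called lower and for 285 of those called higher. In 279 and 305 of these genes the median of the other probe sets had the same sign. In 6 genes with 3 or more probe sets, Sltm, Zfp644, Arhgap32, Wdr33, Armc9 and Gemin5, probe sets of the same gene were called in both directions. Arhgap32 fell by 0.81 on its brightest probe set (9.45 to 10.09 in WT, 8.84 to 9.40 in R6/2) and rose by 0.49 on another. Wdr33, a subunit of the 3′ end processing complex, had probe sets at -0.76, 0.61 and 0.39. Whether such probe sets report different transcripts was not tested.

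No gene was called as changed differently in males and females. Of the 1283 called genes, 1281 had the same direction in both sexes by the labels. These genes were called on both sexes together, so a shared direction is largely set by the call and is no separate evidence. WT replicate 9, whose sex-linked genes went against its label, was counted as female. The interaction of genotype and sex was called for none of the 45037 probe sets by limma, while 2107 had an unadjusted p under 0.05 (4.68%), and the smallest adjusted p was 0.205. The 2 genes with opposite signs, named after their values were seen, were Fv1, at 1.18 in males and -0.13 in females, and Efhd2, at -1.43 and 0.02, and the adjusted p of the interaction was 0.768 for both. The Y-linked genes, also noticed after their values were seen, were compared in the 5 males of each genotype whose sex-linked genes matched the label. Kdm5d lay between 7.47 and 7.66 in WT and between 7.88 and 8.13 in R6/2 (difference 0.49), and Eif2s3y between 9.12 and 9.44 in WT and between 9.5 and 9.82 in R6/2 (difference 0.43). Each had a two-sided exact permutation p = 0.00794, the smallest that 5 against 5 allows, or 0.0119 after Benjamini-Hochberg adjustment over the 3 genes. Uty overlapped, at 5.40 to 6.07 in WT and 6.02 to 6.30 in R6/2, with a difference of 0.41 (exact permutation p = 0.0159, adjusted 0.0159). Since the 3 genes were picked from these same values, the p-values do not account for that choice.

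**Figure D5:**
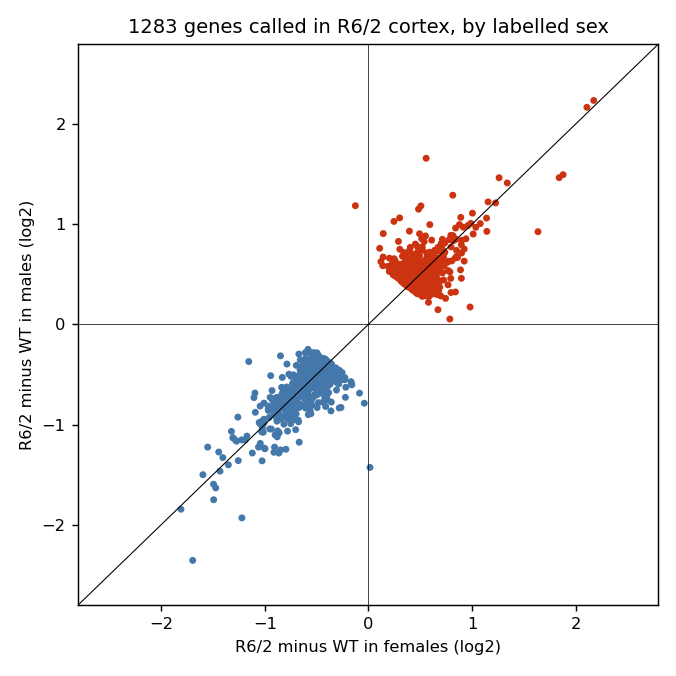
Change of the 1283 called genes (log2, R6/2 minus WT) in labelled females (4 per genotype, horizontal axis) and labelled males (5 per genotype, vertical axis), red for genes called higher and blue for lower; the diagonal marks equal changes. All but 2 genes, Fv1 and Efhd2, lie in the quadrants of equal sign, which the call on both sexes together favours.

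The same transgene was present in Dble::R6/2 mice, and were compared with Hdac4HET mice. The group means there come from the other 19 arrays, but the spread was estimated in 1 model over all 37 arrays, these 18 included, and both groups carry an Hdac4 null allele. Of the 600 genes called lower, 561 were also lower there at an adjusted p under 0.05, beside 14.1% of all genes, and of the 683 called higher, 593 were also higher, beside 28.4% of all genes. Rgs13 changed by 2.17 there and by 2.21 here, Gm2102 by 2.04 and 2.14, Ddit4l by -1.69 and -1.54 and Camkk2 by -0.99 and -1.05. Spink8, Fibcd1 and Agt were at -0.08, -0.27 and -0.27 there and did not pass the test (adjusted p = 0.755, 0.274 and 0.235 by limma), beside -0.88, -0.70 and -0.70 here, and the differences between the comparisons were not tested. Ifi27l2a changed by 0.65 there and by 1.19 here. On several Hdac4HET arrays the olfactory bulb markers were above the WT range, and 5 of the other 19 arrays did not match their labelled sex by the sex-linked genes (replicates 1, 5 and 9 of Hdac4HET, with 1 and 9 of Dble::R6/2). The part of either in the values from those mice was not tested.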

How the data were processed

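Cortex RNA from 18 mice (9 WT and 9 R6/2) was measured on Affymetrix mouse genome arrays, with 1 array per mouse. The authors deposited 1 table of log2 values for 45037 probe sets and 37 arrays after quality control with RACE, and the sources used here do not give the summarisation and normalization steps. The values were used as deposited, and the number of arrays limits the precision. The methods leave out arrays of low quality that are not named, and give fewer WT, Hdac4HET and Dble::R6/2 arrays than the table holds, so all arrays were kept. The platform annotation gave 1 symbol for 34945 probe sets, which stood for 18193 genes.

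Genotype means over all 37 arrays were fitted in R 4.3.3 with limma 3.58.1 (lmFit, eBayes with a trend), and p-values were adjusted by Benjamini-Hochberg over all probe sets. A call needed an adjusted p under 0.05 and a change above 1.3-fold. On simulated data, with 200 probe sets changed, 96% of changes of 0.5 and 100% of those of 0.75, 1 and 1.5 (log2) were recovered for R6/2 against WT, with 1 false call. The simulated noise was independent between probe sets and arrays, and far more probe sets (17496) passed the adjusted p in the data. No change under 0.5 was simulated, so the recovery of changes nearer the 1.3-fold threshold was not measured. The genotype, lists (45) and tests were chosen with earlier results of these data known. Genes were named by rule: the 15 largest rises and falls, the 8 highest and 8 lowest moderated t, up to 4 called members per list or 1 where none was called, Hdac4, Htt and Bdnf, and 6 genes with probe sets called both ways; further genes from the lists, Fv1, Efhd2 and the Y-linked genes were added once their values were known. The ages other than 9 wk were not analysed here. Promoters came from a RefSeq table (GRCm38.p6). The alternatives were other normalization, filters, covariates and sample sets, and each array left out.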

Additional observations from a re-analysis of the deposited data

Results flagged for a closer look

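In each named gene, the highest and the lowest of the 9 values of a genotype were compared with the nearest other value by Dixon's test, over 316 groups of values. Chance alone would give about 1 in 20 such groups, and 26 stood apart. R6/2 replicate 5 was high for 5 genes, of which 3 are activity-induced: Arc at 10.05 (next 8.81), Btg2 at 8.68 (next 8.03), Dusp1 at 10.25 (next 9.63), Crh at 7.89 (next 7.26) and Sorbs2 at 11.07 (next 10.91), and low for Cnpy4, at 8.17. R6/2 replicate 8 was low for 5 genes, Cartpt at 5.90, Dusp18 at 7.03, Gpx3 at 6.81, Grik1 at 6.73 and Kcnip2 at 9.12. R6/2 replicate 6 was low for Catsperz at 5.0 and Fv1 at 4.10. Single R6/2 values stood apart in replicate 9 for Dlgap2 at 8.40, in replicate 2 for Hba-a1 at 3.73, in replicate 1 for Htt at 9.12 and in replicate 4 for Me1 at 9.77. In WT, replicate 8 was low for Arhgap32 at 9.45, Cplx2 at 12.72 and Dlgap2 at 8.29, replicate 6 for Nrp2 at 7.66 and Ptpn20 at 4.13, replicate 3 for Dusp1 at 9.04, replicate 7 for Cacng3 at 9.41 and replicate 9 for 2610001J05Rik at 9.53, and replicate 3 was high for Ddn at 12.81. No interaction of genotype and sex was called by limma.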

How the results depend on the processing

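The count of 2737 called probe sets (1374 higher, 1363 lower, 1283 genes) stayed within 1.5 times of these values under quantile normalization (1260 and 1483), the probe sets above the median level (1012 and 1046), the 18 arrays alone (1371 and 1355), the methods' t-test (1343 and 1327), sex as a covariate, array quality weights, no _x_at or _s_at probe sets, arrays against the labelled sex left out, and both treatments of the olfactory bulb signal. It did not without a fold threshold, with 17496 probe sets (9574 higher, 7922 lower) and 8452 genes, since most changes are small. With a fall of 30% read as a ratio below 0.7, 660 probe sets were lower and 67.6% of calls were higher. Leaving out each WT or R6/2 array gave 2648 to 2909 probe sets (1322 to 1456 higher, 1322 to 1462 lower) and 1251 to 1332 genes. With the replicate number as a block, 2736 probe sets were called (1374 higher, 1362 lower), and 2730 of the main calls were shared. Only 4 of 9 same-numbered pairs deviated together at an r over 0.1 (from -0.188 to 0.373 over all pairs), and 1 WT array correlated best with its own number. This check cannot tell whether some of the numbers pair mice. The sex interaction had 0 calls in every fit by limma, and 1780 to 2254 probe sets had an unadjusted p under 0.05. For the named genes, no call changed sign when the brightest probe set was kept. Sltm, at 0.00, ran between -0.01 and 0.01 over the arrays left out and was at 0.00 without arrays against the labelled sex and with the olfactory bulb mean as a covariate, and the mean over all probe sets of Armc9 was -0.15, against 0.44 for its brightest. Of the 84 named genes with several probe sets, that mean moved the change by more than 1 SD of WT in 38 and by less in 45, beside this reversal. Under quantile normalization 4 named calls, H1f2, Me1, Mthfd2 and Sirt1, were at 0.38, 0.35, 0.35 and 0.36 and no longer past the fold threshold, and Mthfd2 was also lost when any of 9 arrays was left out.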
